A study of Homo sapiens with 9 samples.

Results

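The mitochondrial ribosomal protein genes were taken as all rows whose symbol begins with MRPL or MRPS followed by a digit and that are listed in both deposited count tables. There were 78 such genes, 49 with an *MRPL* and 29 with an *MRPS* symbol, of the 12854 genes shared by the tables. RNA-seq had been performed on HepG2 cells, a human liver cancer cell line that grows as an epithelial-like sheet, carrying a doxycycline-inducible lentiviral short hairpin RNA. The groups were a control hairpin (sh-Con) and 2 different hairpins against the long non-coding RNA *TUG1* (sh1-*TUG1* and sh2-*TUG1*), with 3 libraries each. All lines therefore carry the same vector backbone and differ in the hairpin, and each hairpin is represented by 1 stable line, whose clonality was not stated. The labels give the genotype of sh-Con as wild type and no duration of doxycycline treatment. The libraries of a group were described as technical replicates, so each error and *P* value below covers the spread between libraries of 1 line and not between cultures. The 3 sh-Con libraries are shared by both knockdown comparisons.

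Mitochondrial ribosomes sit in the mitochondrial matrix and translate the few mRNAs that mitochondrial DNA encodes, all of which specify membrane subunits of the oxidative phosphorylation complexes. Their ribosomal RNAs are made in the mitochondrion, whereas every protein of the particle is encoded in the nucleus, translated in the cytosol and imported. The small subunit holds the mRNA and reads its codons, and the large subunit joins the amino acids and guides the new chain through an exit tunnel to the inner membrane. Part of the proteins descend from bacterial ribosomal proteins and part were added during the evolution of mitochondria. The numbering of symbols does not always follow the subunit. *MRPS30* and *MRPS18A* encode large-subunit proteins, and the product of *MRPS36* is now also known as a component of the 2-oxoglutarate dehydrogenase complex. By these assignments 51 of the 78 genes were counted in the large and 27 in the small subunit, *MRPS36* among the latter. *MRPS18A* and *MRPS18B* were counted among the genes without a bacterial homologue, and *MRPS18C* among those with one. These placements are a choice of the lists, and the protein sequences were not compared.

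Library depth was 33051617 to 39393293 counts. All 10 hepatocyte-lineage markers, *ALB* and *AFP* among them, were listed, whereas *PTPRC*, *CD3E*, *COL1A1*, *COL1A2* and *DCN* of 7 markers of other cell types were not in both tables, and the other two, *PECAM1* and *VWF*, had means of 7.64 to 8.33 and 1.49 to 4.71 CPM per group. *TUG1* itself was not analysed here, so the labels were not checked against the targeted RNA. All 78 genes were measured well above the counting floor, and the lowest count of any of them in a library was 333. Expressed as CPM, counts scaled to a common size over all 9 libraries, the mean level in sh-Con ran from 10.6 for *MRPL54* to 127 for *MRPL45*, which encodes a protein that anchors the exit tunnel to the inner membrane. The median of the 78 was 36.7 CPM, beside 27.2 CPM for all shared genes. Per kilobase of transcript, the highest levels in sh-Con belonged to *MRPL49* (109 CPM per kilobase), *MRPL12* (91.9) and *MRPL52* (90.2), and the lowest to *MRPS31* (8.77), *MRPL22* (9.82) and *MRPS17* (10.6). The genes lie on 21 chromosomes.

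In both lines most of these genes moved little, and the 2 hairpins did not move them alike. With sh1-*TUG1*, 6 genes rose and 7 fell at an adjusted *P* under 0.05. The corresponding shares, 7.69% and 8.97%, lay beside 12.5% of all genes tested that rose and 12.3% that fell. With sh2-*TUG1*, 7 genes rose (8.97%, beside 21.6% of all genes) and 22 fell (28.2%, beside 21.9%). None of the 78 passed the criterion of differential expression, a fold change over 1.5 with an adjusted *P* under 0.05, in sh1-*TUG1*, where 2.44% of all genes did so upwards and 2.52% downwards. That count of 0 comes from edgeR and was also 0 with DESeq2, and 29 of the 78 had an unadjusted *P* under 0.05. In sh2-*TUG1* 1 gene passed the criterion upwards, *MRPS6*, and 1 downwards, *MRPL24*, beside 4.35% and 8.97% of all genes. Across the 78 genes the log2 fold change had a median of -0.0036 with sh1-*TUG1* (all genes 0.0027) and of -0.043 with sh2-*TUG1* (all genes -0.0048). Their SD across genes, 0.17 and 0.26, was narrower than that of all genes, 0.34 and 0.50. The counts depended on single libraries and on the scaling. In sh1-*TUG1* they were 14 higher without sh-Con replicate 1, 2 lower without sh1-*TUG1* replicate 2 and 4 lower without sh1-*TUG1* replicate 3, and 11 higher with 6 lower under scaling by library size alone. In sh2-*TUG1* they were 11 higher without sh-Con replicate 1 or sh2-*TUG1* replicate 3, and 13 higher with 16 lower under offsets for transcript length. The 78 genes and all genes are not matched in level or length, so these shares and medians describe the list and test nothing.

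**Figure D1:**
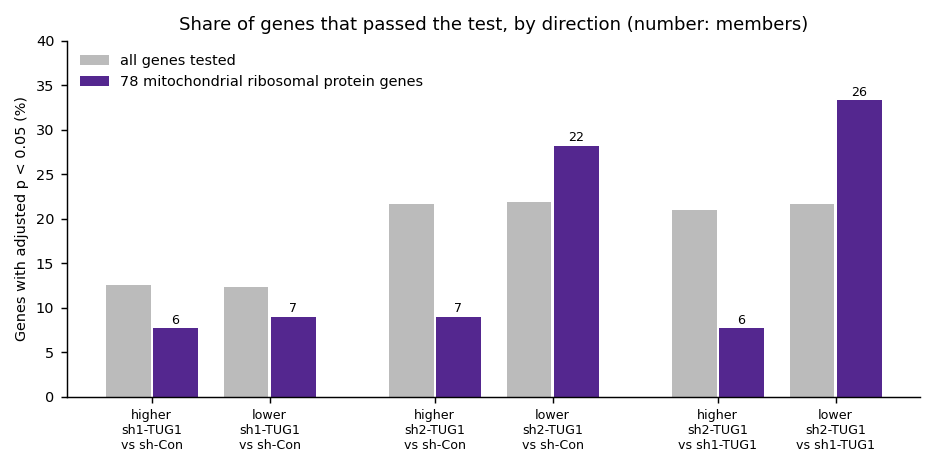
Percentage of genes with an adjusted *P* under 0.05, by direction, for all genes tested (grey bars) and the 78 mitochondrial ribosomal protein genes (purple bars, with the number of genes above each), in each of the 3 comparisons. The purple bar is below the grey one for genes that rose in all 3 comparisons, and above it for genes that fell in sh2-TUG1, with 22 genes against sh-Con and 26 against sh1-TUG1.

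Arranged by subunit and ancestry, large-subunit genes with a bacterial homologue were the largest class, 30 of the 78. They held 6 of the 7 genes that fell in sh1-*TUG1* and 13 of the 22 in sh2-*TUG1*. Of all genes tested, 12.5% rose and 12.3% fell in sh1-*TUG1*, and 21.6% rose and 21.9% fell in sh2-*TUG1*. Of 30 such genes, 1 rose and 6 fell in sh1-*TUG1* (median log2 fold change -0.0165), and 1 rose and 13 fell in sh2-*TUG1* (median -0.17). Of 21 large-subunit genes without a bacterial homologue, 3 rose and 0 fell in sh1-*TUG1* (median 0.039), and 4 rose and 4 fell in sh2-*TUG1* (median -0.028). Of 16 small-subunit genes with a bacterial homologue, 2 rose and 0 fell in sh1-*TUG1*, and 2 rose and 1 fell in sh2-*TUG1* (medians 0.035 and 0.010). Of 11 small-subunit genes without one, 0 rose and 1 fell in sh1-*TUG1*, and 0 rose and 4 fell in sh2-*TUG1* (medians -0.037 and -0.11). The difference between these groups of genes was not tested.

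**Figure D2:**
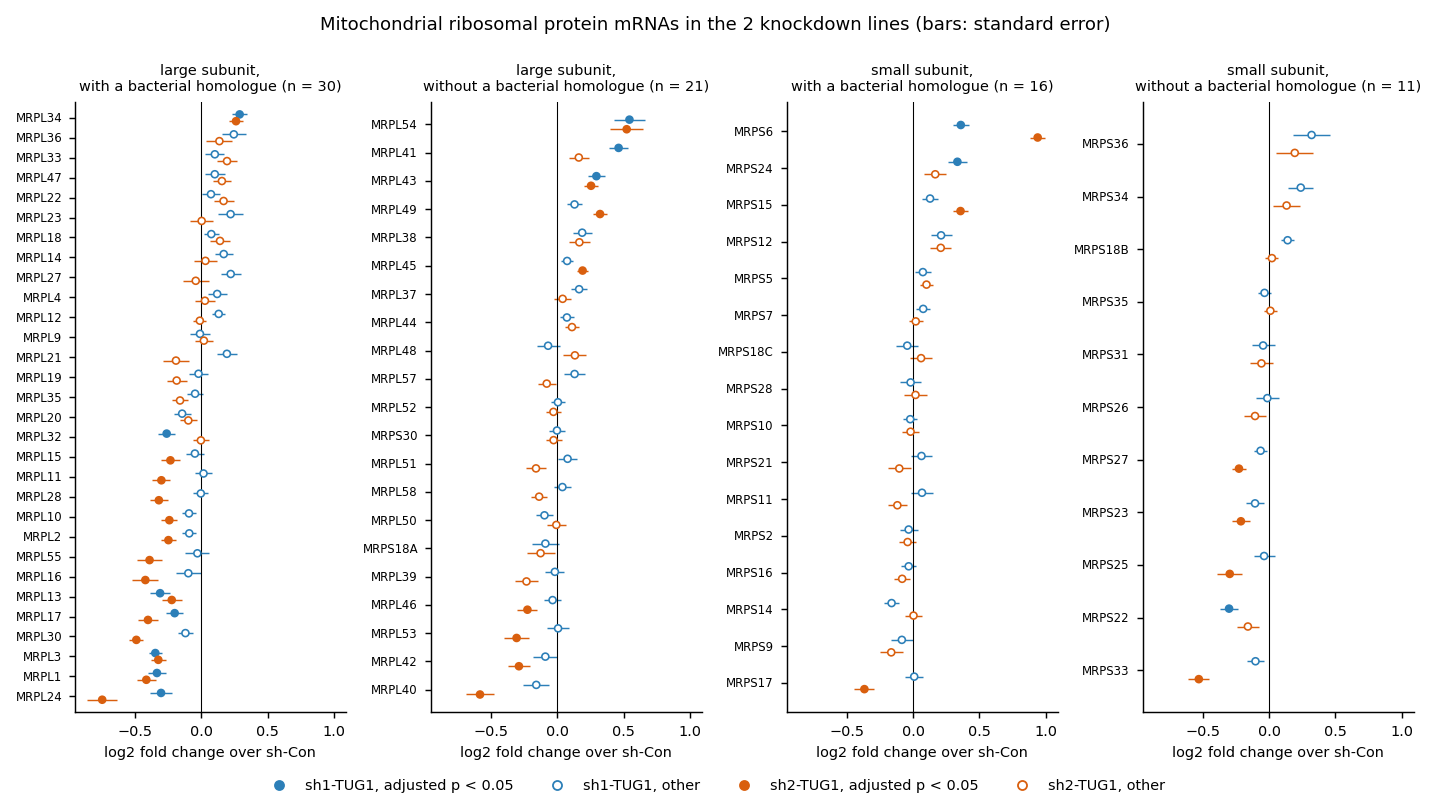
Log2 fold change over sh-Con (x axis) of each of the 78 genes (rows), in sh1-TUG1 (blue) and sh2-TUG1 (orange), in 4 panels by subunit and bacterial ancestry. Points are the estimates from 3 against 3 libraries, bars their standard errors, and filled points have an adjusted P under 0.05. Most points lie within 0.25 of zero, MRPS6 in sh2-TUG1 reaches 0.94, and MRPL24 in sh2-TUG1 reaches -0.75.

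Some of the promoters of these genes hold short sequences that the choice of genes did not use. A promoter of 300 bases (250 before to 50 after the start, RefSeq, GRCh38.p14) was matched for 69 of the 78 genes, taking the first listed start where RefSeq gives several (11 genes), and 6 motifs were searched as exact letters on both strands, none of which contains another. The letters AAGATGGC, bound by the factor YY1, stood in 20 of the 69 promoters (29%), beside 3.03% of all 27305 promoters of the same length and 5.74% of the 9476 promoters of genes listed in the count tables. The letters CCGGAAG, bound by factors of the ETS family such as GABPA, stood in 29 (42%), beside 10.7% and 20.3%. The letters GCATGCGC, bound by NRF1, a regulator of nuclear genes for mitochondrial proteins, stood in 6 (8.7%), beside 3.27% and 5.78%. The E-box CACGTG stood in 6 (8.7%, beside 7.43% and 10.2%), CCAAT in 20 (29%, beside 35.7% and 36.7%) and the TATA box letters TATAAA in 2 (2.9%, beside 12% and 5.18%). The windows below, of 30 bases in the direction of the gene, are examples from genes with a call in at least 1 knockdown line, picked by hand with their values known, and the capitals mark the searched letters or their reverse complement. In *MRPL45* and *MRPS24* the YY1 letters begin 14 and 20 bases after the start, and they hold an ATG. In *MRPL3*, *MRPL40*, *MRPL54*, *MRPS33* and *MRPL30* the capitals are the ETS letters, and in *MRPL17* the NRF1 letters, which overlap a second match on the other strand.
MRPL45 (chr17:38297170-38297199, plus strand): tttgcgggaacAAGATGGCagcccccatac
MRPS24 (chr7:43869480-43869509, minus strand): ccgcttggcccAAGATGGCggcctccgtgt
MRPL3 (chr3:131502985-131503014, minus strand): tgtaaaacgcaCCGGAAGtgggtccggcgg
MRPL40 (chr22:19432523-19432552, plus strand): ggggcgcacgcCCGGAAGcggcgagggtag
MRPL54 (chr19:3762650-3762679, plus strand): gccactgacgtCTTCCGGaaacgtgcactt
MRPS33 (chr7:141014934-141014963, minus strand): agagggcgggcCTTCCGGgacgagggcgcg
MRPL30 (chr2:99181028-99181057, plus strand): ggtctgctgcgCTTCCGGgaagtggtcatg
MRPL17 (chr11:6683401-6683430, minus strand): ggctctgatgcGCATGCGCaaacacgttca

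Genes with the ETS, YY1 or CCAAT letters moved in both directions. Of the 29 genes with ETS letters, 2 rose and 8 fell in sh2-*TUG1* (median log2 fold change -0.099), and of the 40 without them 5 rose and 10 fell (median -0.0008). Of the 20 genes with YY1 letters 1 rose and 3 fell in sh2-*TUG1* (median -0.0057), and of the 49 without them 6 rose and 15 fell (median -0.080). Of the 20 genes with CCAAT, 2 rose and 3 fell there. The letters held by fewer genes had few calls, and their direction was not tested. Of all genes tested, 12.5% rose and 12.3% fell in sh1-*TUG1*, and 21.6% rose and 21.9% fell in sh2-*TUG1*. Of the 6 genes with NRF1 letters none rose in either line, while 2 fell with sh1-*TUG1* and 1 with the other hairpin. Between the hairpins, 1 of these 6 was higher and 2 were lower in sh2-*TUG1*. Of the 6 with the E-box 2 rose in sh2-*TUG1* and none fell in either line, and both genes with TATAAA rose in sh2-*TUG1*, 1 of them also in sh1-*TUG1*. Among the windows printed above, *MRPL45*, *MRPS24* and *MRPL54* belong to genes that rose in at least 1 line, and *MRPL3*, *MRPL40*, *MRPS33*, *MRPL30* and *MRPL17* to genes that fell. *MRPS6*, *MRPL24* and *MRPL1* held none of the searched letters in the window. A match of letters is a description of the sequence, and binding of a factor was not measured.

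*MRPS6*, the homologue of bacterial small-subunit protein S6, showed the largest change of the 78 genes in sh2-*TUG1*. The gene lies on chr21:34073224-34143034 on the plus strand (GRCh38, GENCODE 29). Its level was 25.8, 27.9 and 27.6 CPM in the sh-Con libraries, 34.0, 36.0 and 34.5 CPM in sh1-*TUG1*, and 52.7, 51.9 and 51.8 CPM in sh2-*TUG1*. The 3 groups did not overlap, and sh2-*TUG1* stood highest. On the log2 scale the change was 0.36 ± 0.061 (SE; adjusted *P* = 0.00245) in sh1-*TUG1* and 0.94 ± 0.058 (adjusted *P* = 3.28e-06) in sh2-*TUG1*. The annotated *MRPS6* overlaps, on the same strand, *SLC5A3*, which encodes the sodium/myo-inositol transporter. *SLC5A3* measured 88.5, 102 and 111 CPM in sh-Con, 159, 167 and 161 in sh1-*TUG1*, and 217, 212 and 192 in sh2-*TUG1*. It rose in both lines as well, by 0.69 ± 0.076 (adjusted *P* = 0.000207) and 1.04 ± 0.084 (adjusted *P* = 1.44e-05) on the log2 scale. How reads of shared sequence were assigned is not given in the sources used here, and their part in the *MRPS6* values was not tested.

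*MRPL24*, the homologue of the bacterial assembly-initiating protein L24, showed the largest fall. It lies on chr1:156737303-156741590 on the minus strand, with no overlapping gene among those listed. Its level was 20.7, 19.0 and 17.9 CPM in sh-Con, 16.3, 14.9 and 15.5 in sh1-*TUG1*, and 11.2, 9.97 and 13.2 in sh2-*TUG1*. All libraries of each knockdown line were below all sh-Con libraries, and those of sh2-*TUG1* were also below those of sh1-*TUG1*. On the log2 scale the change was -0.30 ± 0.082 (adjusted *P* = 0.0236) in sh1-*TUG1* and -0.75 ± 0.113 (adjusted *P* = 0.000659) in sh2-*TUG1*. The sh1-*TUG1* call was lost without sh1-*TUG1* replicate 2 (adjusted *P* = 0.0849) or replicate 3 (0.0764).

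*MRPL40*, a mitochondria-specific large-subunit protein encoded in the region deleted in DiGeorge syndrome, stood just outside the fold-change criterion in sh2-*TUG1*. It measured 27.1, 21.6 and 21.1 CPM in sh-Con, 20.3, 20.2 and 21.9 in sh1-*TUG1*, and 15.8, 14.7 and 16.0 in sh2-*TUG1*. The first sh-Con library was the highest by a margin, and the sh1-*TUG1* values overlapped the other control libraries. The log2 fold change was -0.58 ± 0.103 (0.667-fold, adjusted *P* = 0.0016) in sh2-*TUG1* and -0.16 ± 0.099 (adjusted *P* = 0.278) in sh1-*TUG1*.

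Besides *MRPL24*, 4 large-subunit genes with a bacterial homologue passed the test downwards in each knockdown line. These 5 genes made up 71.4% of the mitochondrial ribosomal protein genes' falls in sh1-*TUG1* and 22.7% of those in sh2-*TUG1*. Of the 12854 shared genes, 912 fell in both lines, which was 57.0% of the falls in sh1-*TUG1* and 32.2% of those in sh2-*TUG1*. *MRPL3*, whose bacterial homologue reaches the peptidyl transferase centre, measured 106, 108 and 99.8 CPM in sh-Con, 82.8, 84.0 and 80.2 in sh1-*TUG1*, and 81.0, 82.2 and 87.9 in sh2-*TUG1*. Its log2 fold change was -0.35 ± 0.050 (adjusted *P* = 0.000963) in sh1-*TUG1* and -0.33 ± 0.056 (adjusted *P* = 0.0014) in sh2-*TUG1*. The knockdown lines lay together below the control, with no overlap. *MRPL1*, the protein of the L1 stalk by which spent tRNA leaves the ribosome, measured 21.1, 19.9 and 20.3 CPM in sh-Con, 15.8, 16.4 and 16.4 in sh1-*TUG1*, and 15.7, 15.2 and 15.1 in sh2-*TUG1*. It fell by 0.34 ± 0.070 (adjusted *P* = 0.00711) and 0.42 ± 0.072 (adjusted *P* = 0.00142) on the log2 scale. *MRPL17*, next to the exit tunnel, measured 25.7, 25.4 and 24.9 CPM in sh-Con, 21.0, 22.8 and 22.2 in sh1-*TUG1*, and 18.6, 18.2 and 20.7 in sh2-*TUG1*. Its log2 fold change was -0.20 ± 0.064 (adjusted *P* = 0.0445) in sh1-*TUG1*, a call that did not hold with DESeq2 (adjusted *P* = 0.0679) or without any 1 of the 6 libraries (edgeR adjusted *P* of 0.0593 to 0.140), and -0.40 ± 0.072 (adjusted *P* = 0.00171) in sh2-*TUG1*. *MRPL13* had mean levels of 28.4 ± 2.51 CPM in sh-Con, 22.9 ± 0.562 CPM in sh1-*TUG1* and 24.3 ± 0.522 CPM in sh2-*TUG1* (SD, n = 3), with log2 fold changes of -0.31 (adjusted *P* = 0.0161) and -0.22 (adjusted *P* = 0.0383). Its sh1-*TUG1* call was lost without sh-Con replicate 2 (adjusted *P* = 0.0527), sh1-*TUG1* replicate 2 (0.0517) or sh1-*TUG1* replicate 3 (0.0635).

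**Figure D3:**
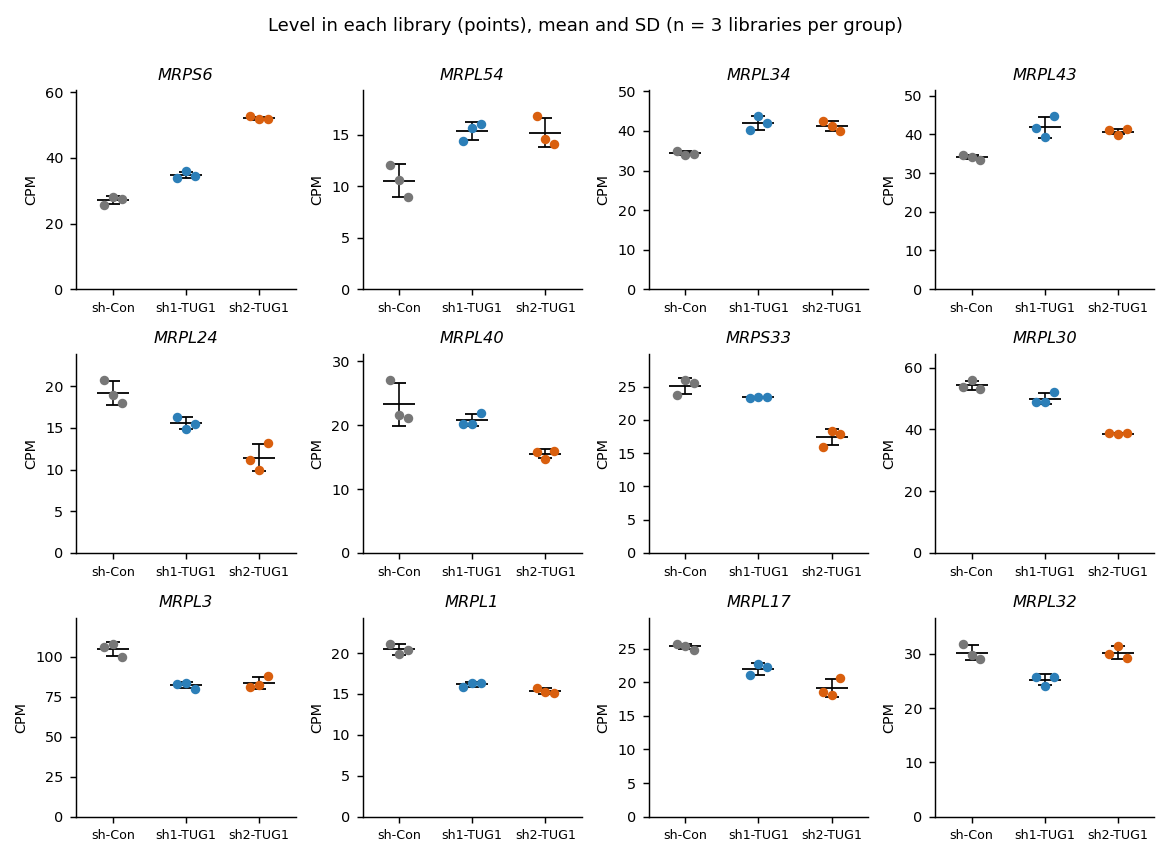
Level in CPM (y axis, from 0) of 12 of the named genes in each library (points) of sh-Con (grey), sh1-TUG1 (blue) and sh2-TUG1 (orange), with the mean and SD of 3 libraries in black. MRPS6 steps up from 27.1 to 34.8 and 52.1 CPM, MRPL24 steps down from 19.2 to 15.6 and 11.4 CPM, MRPL30 is lower in sh2-TUG1 (38.7 CPM) than in the other groups, and MRPL32 is lower in sh1-TUG1 (25.2 CPM).

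Genes passing the test upwards in each line were *MRPL54*, *MRPL34* and *MRPL43* beside *MRPS6*. These are 4 of the 78 genes, beside 865 of the 12854 shared genes that rose in both lines. They made up 66.7% of the 78 genes' rises in sh1-*TUG1* and 57.1% of those in sh2-*TUG1*, beside 53.8% and 31.3% over all shared genes. *MRPL54*, the least abundant of the 78 in sh-Con, measured 12.1, 10.6 and 8.95 CPM in sh-Con, 14.4, 15.7 and 16.1 in sh1-*TUG1*, and 16.8, 14.6 and 14.2 in sh2-*TUG1*. Both fold changes, 0.54 ± 0.116 (adjusted *P* = 0.00801) and 0.52 ± 0.125 (adjusted *P* = 0.0078) on the log2 scale, were just under a fold change of 1.5, and the control libraries spread more than those of most other genes. *MRPL34*, the homologue of bacterial L34, had means of 34.4 ± 0.518, 42.0 ± 1.69 and 41.3 ± 1.36 CPM in sh-Con, sh1-*TUG1* and sh2-*TUG1* (SD, n = 3), and rose by 0.29 ± 0.055 (adjusted *P* = 0.00472) and 0.26 ± 0.056 (adjusted *P* = 0.00456) on the log2 scale. *MRPL43*, a mitochondria-specific protein, had means of 34.1 ± 0.585, 41.8 ± 2.70 and 40.7 ± 0.750 CPM in the same order, and rose by 0.30 ± 0.062 (adjusted *P* = 0.00741) and 0.25 ± 0.054 (adjusted *P* = 0.0044). *MRPL43* starts next to and overlaps *TWNK*, the mitochondrial DNA helicase gene on the opposite strand. The log2 fold changes of *TWNK* were -0.17 (adjusted *P* = 0.0567) and -0.040 (adjusted *P* = 0.609). *MRPL43* also overlaps *SEMA4G* on that strand, with 129 CPM in sh-Con. *SEMA4G* changed by 0.14 (adjusted *P* = 0.140) and -0.61 (adjusted *P* = 0.000154). The part of shared reads in the *MRPL43* values was not tested.

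In sh1-*TUG1* 4 further genes passed the test and had no call in sh2-*TUG1*. Of all shared genes, 1609 rose and 1599 fell in sh1-*TUG1*, and 865 and 912 of these had the same call in sh2-*TUG1*. *MRPL41* rose from 30.0, 30.5 and 31.9 CPM to 42.0, 39.0 and 46.5 CPM (log2 fold change 0.46 ± 0.072, adjusted *P* = 0.00157), and measured 35.8, 36.8 and 31.1 CPM in sh2-*TUG1*. *MRPS24*, the homologue of bacterial S3 at the mRNA entry, rose by 0.33 ± 0.072 (adjusted *P* = 0.00842), from a mean of 34.7 to 43.8 CPM. *MRPS22*, a mitochondria-specific small-subunit protein mutated in an inherited disorder of oxidative phosphorylation, went from 49.0, 47.0 and 41.4 CPM to 38.3, 35.2 and 37.8 CPM, a fall of 0.30 ± 0.071 (adjusted *P* = 0.0128). *MRPL32*, whose cleavage by the m-AAA protease gates assembly of the particle, measured 31.8, 29.8 and 29.1 CPM in sh-Con, 25.8, 24.1 and 25.8 in sh1-*TUG1*, and 30.0, 31.5 and 29.2 in sh2-*TUG1*. Its log2 fold change was -0.26 ± 0.064 (adjusted *P* = 0.0153) in sh1-*TUG1*, and the sh2-*TUG1* values overlapped the control. Without sh1-*TUG1* replicate 2 the calls of *MRPS22* and *MRPL32* were lost (adjusted *P* = 0.0604 and 0.0645).

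In sh2-*TUG1* the genes with calls that sh1-*TUG1* lacked were 3 upwards and 17 downwards. Of all shared genes, 2765 rose and 2835 fell in sh2-*TUG1*, and 865 and 912 of these had the same call in sh1-*TUG1*. *MRPS15*, which binds the small ribosomal RNA, went from 55.9, 50.6 and 50.7 CPM to 67.8, 65.2 and 68.6 CPM (log2 fold change 0.36 ± 0.060, adjusted *P* = 0.00117). *MRPL49* rose by 0.32 ± 0.054 (adjusted *P* = 0.0012), from a mean of 55.3 to 69.3 CPM, and *MRPL45* by 0.19 ± 0.043 (adjusted *P* = 0.00624), from 127 to 145 CPM. Downwards, *MRPS33*, a mitochondria-specific small-subunit protein, went from 23.7, 26.0 and 25.6 CPM to 16.0, 18.3 and 17.9 CPM (-0.53 ± 0.079, adjusted *P* = 0.000595). *MRPL30* went from 53.7, 56.0 and 53.1 CPM to 38.7, 38.6 and 38.7 CPM (-0.49 ± 0.053, adjusted *P* = 9.22e-05). For both genes the sh2-*TUG1* libraries lay below all others. *MRPL16*, which sits by the peptidyl transferase centre, fell by 0.42 ± 0.098 (adjusted *P* = 0.00674), from 16.1 to 12.1 CPM. *MRPL55* fell by 0.39 ± 0.097 (adjusted *P* = 0.00952), from 16.5 to 12.6 CPM, and *MRPS17*, the homologue of bacterial S17, by 0.37 ± 0.075 (adjusted *P* = 0.00354), from 19.5 to 15.1 CPM. The other 11 genes that fell had log2 fold changes between -0.32 and -0.21. They were *MRPL11* and *MRPL10*, both of the stalk region that binds translation factors, and *MRPL28*, *MRPL53*, *MRPL42*, *MRPL2*, *MRPL15*, *MRPL46*, *MRPS25*, *MRPS27* and *MRPS23*.

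The remaining 45 of the 78 genes passed the test in neither line, beside 6100 of the 12854 shared genes. Their estimates lay between -0.16 (*MRPS14*) and 0.32 (*MRPS36*) in sh1-*TUG1* and between -0.23 (*MRPL39*) and 0.21 (*MRPS12*) in sh2-*TUG1*. *MRPL12*, which forms the stalk and also binds the mitochondrial RNA polymerase, measured 94.5 ± 1.89 CPM in sh-Con, 103 ± 4.48 in sh1-*TUG1* and 93.8 ± 2.60 in sh2-*TUG1* (SD, n = 3). The largest spread between control libraries relative to the mean was seen for *MRPS36*, at 17.0, 26.8 and 24.2 CPM, so that its change of 0.32 ± 0.139 in sh1-*TUG1* could not be told from zero (adjusted *P* = 0.123). A gene in this set is not thereby shown to be unchanged, since the median standard error was 0.070 for sh1-*TUG1* and 0.073 for sh2-*TUG1*.

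Compared directly in a fit over all 9 libraries, sh2-*TUG1* was below sh1-*TUG1* for more of these genes than it was above. Of the 78, 6 were higher (7.69%, beside 21.0% of all genes tested) and 26 lower (33.3%, beside 21.7%) at an adjusted *P* under 0.05. The median log2 difference was -0.098, beside -0.0007 over all genes. With edgeR none passed a fold change of 1.5, nor did any with DESeq2, and 37 had an unadjusted *P* under 0.05. Of all genes, 2.56% passed that criterion upwards and 8.04% downwards. *MRPS6* was nearest, at 0.58 ± 0.051 (adjusted *P* = 5.01e-06). The next higher genes were *MRPL32* (0.26 ± 0.060, adjusted *P* = 0.00465), *MRPS15* (0.23 ± 0.055, adjusted *P* = 0.00556), *MRPL49* (0.19 ± 0.052, adjusted *P* = 0.0108), *MRPS14* (0.17 ± 0.061, adjusted *P* = 0.0439) and *MRPL45* (0.12 ± 0.039, adjusted *P* = 0.0274). Scaled by library size alone, the calls of *MRPL49*, *MRPS14* and *MRPL45* were lost (adjusted *P* = 0.061, 0.186 and 0.275), as were those of *MRPL49* without sh1-*TUG1* replicate 3 or sh2-*TUG1* replicate 1 (0.0538 and 0.0502), and those of *MRPS14* and *MRPL45* without each of several libraries (up to 0.163 and 0.12). The largest negative differences were those of *MRPL24* (-0.44 ± 0.104, adjusted *P* = 0.00521), *MRPS33* (-0.43 ± 0.069, adjusted *P* = 0.00047), *MRPL40* (-0.42 ± 0.096, adjusted *P* = 0.00405), *MRPL21* (-0.38 ± 0.093, adjusted *P* = 0.0062), *MRPS17* (-0.37 ± 0.065, adjusted *P* = 0.00075) and *MRPL30* (-0.37 ± 0.049, adjusted *P* = 0.000114). *MRPL21*, the homologue of bacterial L21, had a call only in this comparison: it measured 20.7, 23.2 and 21.4 CPM in sh-Con, 24.3, 23.5 and 26.7 in sh1-*TUG1*, and 18.8, 21.6 and 16.8 in sh2-*TUG1*. Its sh1-*TUG1* libraries were above all control libraries, and its sh2-*TUG1* libraries overlapped them. The number of genes lower in sh2-*TUG1* was 14 with offsets for transcript length and 15 to 17 without any one of the knockdown libraries. Scaled by library size alone, 3 genes were higher and 33 lower.

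Added over genes, the changes were small. The summed level of all 78 was 3638 ± 28.2 CPM in sh-Con, 3707 ± 6.11 CPM in sh1-*TUG1* and 3556 ± 44.7 CPM in sh2-*TUG1* (SD, n = 3). The 51 large-subunit genes summed to 2290 ± 30.3, 2331 ± 8.12 and 2207 ± 28.5 CPM, and the 27 small-subunit genes to 1348 ± 4.69, 1376 ± 4.99 and 1349 ± 20.2 CPM, in the same order. The 3 large-subunit sums of sh2-*TUG1* lay below all others. The small-subunit sums of sh2-*TUG1* overlapped the control, and those of sh1-*TUG1* lay above all others. The ratio of large-subunit to small-subunit sums was 1.73, 1.68 and 1.68 in sh-Con, 1.68, 1.70 and 1.70 in sh1-*TUG1*, and 1.62, 1.64 and 1.65 in sh2-*TUG1*, where all 3 libraries were below those of the other groups. The sums are levels of mRNA, weighted to the abundant genes. Without any scaling beyond the library total, the 78 genes held 0.364% to 0.365% of the counts in sh-Con, 0.378% to 0.379% in sh1-*TUG1* and 0.345% to 0.351% in sh2-*TUG1*.

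**Figure D4:**
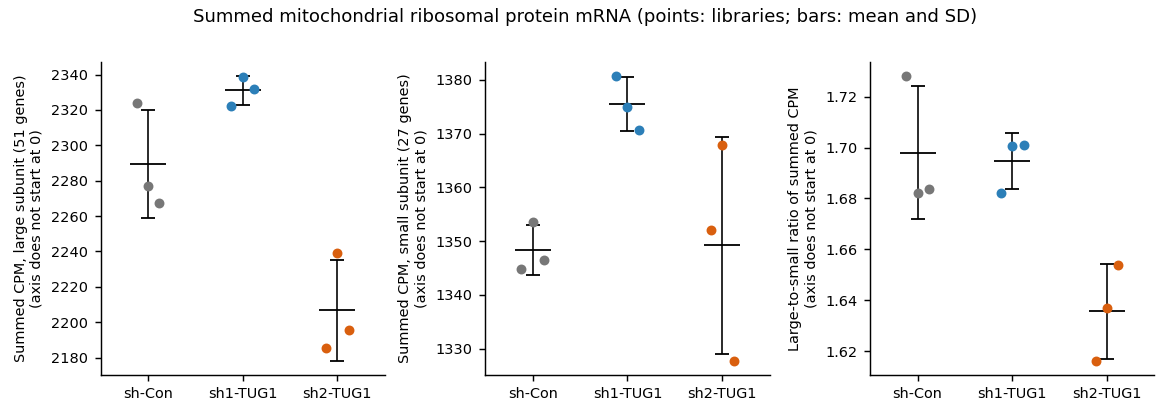
Summed CPM of the 51 large-subunit genes (left), of the 27 small-subunit genes (middle) and their ratio (right) in each library (points), with mean and SD of 3 libraries. The y axes do not start at 0. The sh2-TUG1 libraries have the lowest large-subunit sums (2207 ± 28.5 CPM) and the lowest ratios (1.62 to 1.65).

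In sh1-*TUG1* the response of single genes went along with the base composition of their transcripts. Across the 78 genes, the correlation between log2 fold change and the percentage of G and C was 0.476 (Pearson; Spearman 0.466) in sh1-*TUG1*, 0.156 (0.164) in sh2-*TUG1* and -0.236 (-0.265) between the hairpins. Over all genes with an annotated transcript it was 0.127, -0.055 and -0.166 (Pearson). The 78 points share the same libraries, and genes are not independent replicates. In sh1-*TUG1* the 6 genes that rose had between 48.9% (*MRPS6*) and 71.9% (*MRPL41*) G and C, and the 7 that fell between 39.1% (*MRPL1*) and 54.6% (*MRPL24*), so the ranges overlapped. Apart from *MRPS6* and *MRPL24*, set aside with their values known, those that rose had at least 57.0% (*MRPL43*) and those that fell at most 47.7% (*MRPL17*). These genes were picked by the same fold changes, so their ranges restate the correlation and test nothing. With offsets for this composition, 7 genes rose and 7 fell in sh1-*TUG1*. The correlation with transcript length was -0.263, -0.129 and 0.070 in the same order of comparisons, and that with the level was 0.026, 0.230 and 0.299. Their median transcript length was 1137 bases, with a range of 461 to 3332.

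Many of these genes stand close to other genes, which bears on how their reads can be assigned. Of the 78, 32 overlap another listed gene, 8 of them on the same strand, and 34 have annotated pseudogenes named after them, 75 in all. The use of strand in counting was not stated. *MRPS17* overlaps *NIPSNAP2* on the same strand, and *NIPSNAP2* had an estimate of 0.0094 in sh2-*TUG1* (adjusted *P* = 0.946). *MRPL28* and *MRPL53*, which fell in sh2-*TUG1*, overlap on the same strand *TMEM8A* and *CCDC142*, which rose there (0.33, adjusted *P* = 0.00218, and 0.51, adjusted *P* = 0.0343). *MRPL40* overlaps *HIRA* on the other strand, which rose by 0.31 in sh2-*TUG1* (adjusted *P* = 0.00125). Some neighbours moved the same way as the gene they overlap. *MRPL34*, which rose in both lines, overlaps on the other strand *ABHD8*, which rose in sh2-*TUG1* (0.52, adjusted *P* = 0.00088). *MRPS22*, which fell in sh1-*TUG1*, overlaps on the other strand *COPB2*, which fell there (-0.20, adjusted *P* = 0.00938). The part of shared reads in these values was not tested. Start sites within 1000 bases of an oppositely oriented protein-coding gene were found for 29 of the 78. Over the 25 distinct pairs with both genes tested, the log2 fold changes of the partners had a correlation of 0.226 (Pearson; Spearman 0.303) in sh1-*TUG1* and 0.387 (0.212) in sh2-*TUG1*, with the same sign in 16 and 15 pairs. The pair of *MRPL46* and *MRPS11*, which start 34 bases apart, encodes 1 protein of each subunit. *MRPL46* fell in sh2-*TUG1* (-0.23, adjusted *P* = 0.0346), and *MRPS11* had an estimate of -0.12 (adjusted *P* = 0.198).

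The other genes of mitochondrial translation were taken from lists of the proteins that build, feed and serve the ribosome. For this and every list below, the counts stand beside the shares of all genes tested. In sh1-*TUG1* 12.5% of all genes rose and 12.3% fell, and in sh2-*TUG1* 21.6% rose and 21.9% fell. No list was tested as a set. Of 5 ribosomal proteins named under other symbols, 0 passed the test in sh1-*TUG1* and 1 fell in sh2-*TUG1*. This was *DAP3*, which binds GTP in the small subunit, which went from 134 ± 9.89 CPM to 114 ± 6.93 CPM (-0.24 ± 0.067, adjusted *P* = 0.0158). Of 28 assembly and ribosomal RNA maturation factors tested, 1 rose and 1 fell in sh1-*TUG1* (median 0.079), and 2 rose and 10 fell in sh2-*TUG1* (median -0.079). The assembly factor *RCC1L* rose in both lines (0.26, adjusted *P* = 0.0112, and 0.28, adjusted *P* = 0.0114). *MTERF3*, which acts in large-subunit assembly, had the largest fall in sh1-*TUG1* (-0.42, adjusted *P* = 0.0165), and *METTL15*, a methyltransferase of the small ribosomal RNA, in sh2-*TUG1* (-0.53, adjusted *P* = 0.0055).

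Of 16 translation factors tested, 1 rose and 2 fell in sh1-*TUG1* (median -0.028), and 3 rose and 5 fell in sh2-*TUG1* (median -0.031). *TACO1*, a translational activator of cytochrome oxidase subunit I, rose in both lines (0.43, adjusted *P* = 0.000374, and 0.31, adjusted *P* = 0.00384). *C12orf65*, a ribosome rescue factor, had the largest rise in sh2-*TUG1* (0.47, adjusted *P* = 0.000926). The translation factor genes *GFM2* in sh1-*TUG1* (-0.25, adjusted *P* = 0.0455) and *GUF1* in sh2-*TUG1* (-0.36, adjusted *P* = 0.00194) had the largest falls. Of 20 genes for charging mitochondrial tRNA, 0 rose and 1 fell in sh1-*TUG1*, and 2 rose and 9 fell in sh2-*TUG1* (medians -0.0195 and -0.19). *HARS2*, the histidyl-tRNA synthetase, fell from 22.9 ± 2.02 CPM to 16.6 ± 1.06 CPM in sh1-*TUG1* (-0.46, adjusted *P* = 0.00456) and 14.0 ± 0.780 CPM in sh2-*TUG1* (-0.71, adjusted *P* = 0.000224). *QRSL1*, a subunit of the complex that makes glutaminyl-tRNA, rose in sh2-*TUG1* (0.34, adjusted *P* = 0.00164).

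Most of the mRNAs that these ribosomes translate fell in both lines. Of the 13 mRNAs encoded by mitochondrial DNA, 10 fell and 0 rose in sh1-*TUG1* (median log2 fold change -0.51), and 9 fell and 0 rose in sh2-*TUG1* (median -0.36). The largest fall in each line was that of *MT-ND4L*, a complex I subunit, with 575 ± 127 CPM in sh-Con, 333 ± 20.5 CPM in sh1-*TUG1* (-0.79, adjusted *P* = 0.00169) and 360 ± 44.0 CPM in sh2-*TUG1* (-0.67, adjusted *P* = 0.00367). It shares 1 transcript with *MT-ND4*, and the control libraries spread widely. Between the hairpins 1 of the 13 was higher and 0 lower in sh2-*TUG1*. Of 16 genes of mitochondrial DNA maintenance and transcription, 0 rose and 2 fell in sh1-*TUG1*, and 3 rose and 3 fell in sh2-*TUG1* (medians -0.049 and 0.0053). *KIAA0391*, the nuclease that trims mitochondrial tRNA, had the largest fall in sh1-*TUG1* (-0.86, adjusted *P* = 0.0488), with an SD of 12.7 around a mean of 37.6 CPM in sh-Con. In sh2-*TUG1* the DNA polymerase gene *POLG* rose most (0.25, adjusted *P* = 0.00546) and *HSD17B10*, a partner of that nuclease, fell most (-0.31, adjusted *P* = 0.00602).

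Of 9 transcription regulators of mitochondrial biogenesis tested, 1 rose and 2 fell in sh1-*TUG1*, and 4 rose and 0 fell in sh2-*TUG1* (medians 0.055 and 0.21). *YY1*, whose letters were searched in the promoters above, measured 94.4 ± 6.68 CPM in sh-Con, 109 ± 2.45 CPM in sh1-*TUG1* (0.21, adjusted *P* = 0.0277) and 125 ± 4.50 CPM in sh2-*TUG1* (0.40, adjusted *P* = 0.000799). *PPARGC1A*, the coactivator PGC-1alpha, had the largest rise in sh2-*TUG1*, from 64.9 ± 2.30 to 103 ± 3.11 CPM (0.66, adjusted *P* = 1.4e-05). In sh1-*TUG1* it measured 70.7 ± 2.50 CPM (0.12, adjusted *P* = 0.130). *PPRC1*, a related coactivator, had the largest fall in sh1-*TUG1* (-0.23, adjusted *P* = 0.0448). *NRF1* itself measured 12.2 CPM in sh-Con and sh1-*TUG1* and 12.6 CPM in sh2-*TUG1*, with no call.

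**Figure D5:**
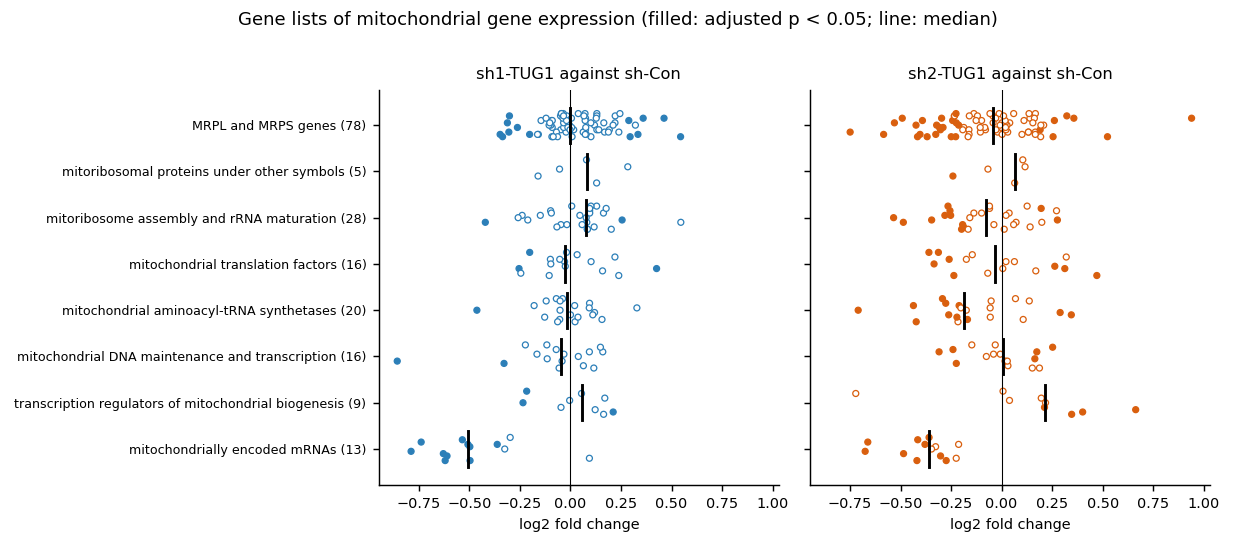
Log2 fold change over sh-Con (x axis) of the genes of each list (rows, number of genes tested in brackets) in sh1-TUG1 (left) and sh2-TUG1 (right). Points are genes, filled where the adjusted P is under 0.05, and the black line is the median of the list. The 78 MRPL and MRPS genes lie around zero, whereas the 13 mitochondrially encoded mRNAs have medians of -0.51 and -0.36.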

How the data were processed

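Counts, FPKM values, FDR (p-values adjusted by the authors) and log2 fold changes were deposited in 2 tables, each holding sh-Con and 1 knockdown line. Only the raw counts per gene were used. The submitters' processing notes name HISAT2, StringTie and GRCh38, with no roles, and the counter, annotation and use of strand are not given in the sources used here. Libraries were made with a NEBNext Ultra kit and sequenced on the NovaSeq X platform by a sequencing company. The 78 genes and all gene lists were chosen with earlier results of these data known.

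Each line was compared with sh-Con in its own table (13017 genes for sh1-*TUG1*, 12953 for sh2-*TUG1*) with edgeR 4.0.16 in R 4.3.3, using TMM normalization and the quasi-likelihood F test. The hairpins were compared with each other in 1 fit of all 9 libraries over 12854 shared genes. *P* values were adjusted by the Benjamini-Hochberg method over all genes of a fit. No genes were filtered, since each table was already restricted (at least 1 CPM in 3 libraries removed 0 genes). The SE of a log2 fold change was computed from the F statistic. CPM values are TMM-scaled over the 9 libraries, and transcript length and composition are medians over the protein-coding transcripts of the basic GENCODE 29 set. The procedure was tested on simulated data. Libraries of a group differed by more than sampling noise (chi-squared per degree of freedom of 6.41 to 25.8 over 10772 genes), so none was counted as a duplicate. Precision is limited by the spread between 3 libraries per group. An exact permutation test of 3 against 3 cannot go below 0.1 and was not used.

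Genes were named by a rule: of those with an adjusted *P* under 0.05, the 10 largest rises and falls per line and the 6 largest between the hairpins, all past a fold change of 1.5, the 3 highest and lowest per kilobase in sh-Con, and the largest rise and fall per other list and line. Alternatives were RLE factors, library size alone, a filter, DESeq2 1.42.0, a replicate block, length or GC offsets, rows with an Ensembl identifier, 1 fit of all libraries, a test against 1.5-fold, and leaving out each library.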

Additional observations from a re-analysis of the deposited data

Results flagged for a closer look

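The difference between the hairpins was itself tested for each gene, and of the 78 genes 6 had a positive and 26 a negative difference (sh2-*TUG1* minus sh1-*TUG1*) with an adjusted *P* under 0.05. Values are given for the 12 that the naming rule keeps, all 6 higher genes and the 6 with the largest negative differences. Higher in sh2-*TUG1* on the log2 scale were *MRPS6* (0.58), *MRPL32* (0.26), *MRPS15* (0.23), *MRPL49* (0.19), *MRPS14* (0.17) and *MRPL45* (0.12). Lower were *MRPL24* (-0.44), *MRPS33* (-0.43), *MRPL40* (-0.42), *MRPL21* (-0.38), *MRPS17* (-0.37) and *MRPL30* (-0.37). *MRPL32* and *MRPS14* had lower estimates in sh1-*TUG1* (-0.26 and -0.16) and estimates near zero in sh2-*TUG1*. The differences of *MRPS14*, *MRPL45* and *MRPL49* did not keep an adjusted *P* under 0.05 under every alternative (largest adjusted *P* 0.324, 0.275 and 0.061). Groups of 3 libraries are too small for a test of outlying samples.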

How the results depend on the processing

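Of the named genes, 191 estimates in sh1-*TUG1*, 272 in sh2-*TUG1* and 193 between the hairpins kept their direction and their side of the threshold under the alternatives. Another 17, 0 and 23 lost the call with the direction kept (in sh1-*TUG1* those of *MRPL17*, *MRPL13*, *MRPL24*, *MRPS22* and *MRPL32*), and none reversed. The filter removed 0 genes, so its estimates, counted among those kept, equal the main ones by construction. In sh1-*TUG1*, library size alone gave 11 genes higher and 6 lower (against 6 and 7), with a median of 0.023. In sh2-*TUG1*, library size alone gave a median of -0.078, transcript length offsets gave 13 genes higher and 16 lower (against 7 and 22) with a median of -0.0076, and a test against 1.5-fold left 1 gene past it, *MRPS6*, of 2. Between the hairpins, library size alone gave 3 genes higher and 33 lower (against 6 and 26), with a median of -0.16. Transcript length offsets gave 14 lower, 1 past 1.5-fold and a median of -0.031. GC offsets gave 1 past 1.5-fold and a median of -0.0745, and the same offsets with a replicate block gave 1 and -0.0744.

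Leaving out 1 library, sh1-*TUG1* gave 6 to 14 genes higher (14 without sh-Con replicate 1), 2 to 7 lower (2 without sh1-*TUG1* replicate 2 and 4 without replicate 3), 0 to 1 past 1.5-fold (1 without sh-Con replicate 1 or sh1-*TUG1* replicate 1) and medians of -0.0073 to 0.014. In sh2-*TUG1* 7 to 11 were higher (11 without sh-Con replicate 1 or sh2-*TUG1* replicate 3) and 16 to 24 lower, with 2 to 3 past 1.5-fold. Between the hairpins 3 to 6 were higher (3 without sh1-*TUG1* replicate 3 or sh2-*TUG1* replicate 1), 15 to 30 lower (15 to 17 without any one knockdown library), 0 to 1 past 1.5-fold (1 without sh1-*TUG1* replicate 2), and the medians were -0.10 to -0.072.

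Same-numbered libraries did not deviate together (correlations of -0.33 to 0.011), so the numbers do not pair them. A replicate block gave 17 genes lower between the hairpins (against 26) and moved the other counts of genes by less than 1.5 times, except for those higher between the hairpins (4 against 6). The cause of these changes was not tested. With 3 libraries of 1 line per group, differences between cultures could not be estimated.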
